A study of Mus musculus with 4 samples.

Results

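The imprinted growth genes examined here were *H19*, *Igf2*, *Igf2r*, *Meg3*, *Dlk1*, *Grb10*, *Peg3*, *Ndn*, *Mest* and *Plagl1*. They were found by symbol in a table of RNA sequencing values of fetal liver LSK (Lin−Sca-1+c-Kit+) cells, among which hematopoietic stem cells (HSCs) are enriched. All 10 symbols matched 1 row each of the 39186 genes listed, and all 10 passed the filter on low values. The data came from C57BL/6 mice, with 2 *Pich*-KO and 2 *Pich*-WT samples. *Pich*-KO embryos carry a small TALEN-made deletion early in the second exon of the X-linked gene for PICH (listed as *Ercc6l*), and *Pich*-WT embryos are unedited. The allele is constitutive, so every cell of the *Pich*-KO embryo carries it, also the liver cells around the LSK cells. The sorting methods of the study took livers at embryonic day 14.5. No source used here says whether a sample was 1 embryo or a pool, so p-values measure the spread between these samples, which may be technical.

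Imprinted genes are transcribed mainly from the copy inherited from one parent. The choice is set by DNA methylation laid down in egg or sperm and kept through later cell divisions by factors that recognise the methylated sequence. Many of these genes act on growth before birth. *Igf2* encodes a growth factor that signals through the IGF1 receptor and the insulin receptor. *Igf2r* encodes the receptor that binds IGF2 and carries it to lysosomes, and *Grb10* encodes an adaptor that restrains insulin and IGF1 receptor signalling. *H19*, *Igf2r*, *Meg3* and *Grb10* are expressed from the maternal allele in most tissues, and *Igf2*, *Dlk1*, *Peg3*, *Ndn*, *Mest* and *Plagl1* from the paternal allele. The *H19*-*Igf2* and *Dlk1*-*Meg3* regions have both been studied in HSCs. The libraries do not separate the parental alleles, so the values below are sums of both copies.

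Between 14703215 and 20933919 reads fell on genes in each sample. The normalized counts of *Ercc6l* were 1142 and 1232 in *Pich*-KO against 772 and 661 in *Pich*-WT. Transcripts with the small deletion are still counted, so this level is no check of genotype. *Pich*-WT sample 2 had 0 reads on 4 Y-linked genes, where the other samples had 1607 to 2848. For each member, the fold change without this sample is therefore given beside that of all samples. Replicate libraries differed beyond counting noise. Over the 32428 genes tested, the median log2 fold change was 0.02.

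Several members are transcribed through microRNA genes on the same strand. RefSeq (GRCm38.p6) placed 9 mature microRNAs of 5 hairpins inside 4 members, with 9 distinct seeds. All are shown, since they lie inside *H19*, *Igf2*, *Meg3* and *Mest*, which fell in *Pich*-KO. Whether they are cut from the RNA of these hosts was not tested. Sequences run 5′ to 3′, with the seed (bases 2 to 8) in capitals. Both arms of *Mir675* lie in an exon of *H19*. Both arms of *Mir770* and the listed mature form of *Mir1906-1* lie in exons of *Meg3*. The arms of *Mir483* and *Mir335* lie in introns of *Igf2* and *Mest*. Mature microRNAs were not measured in these libraries.
mmu-miR-675-5p (*H19*, chromosome 7, minus strand, 142577112 to 142577133): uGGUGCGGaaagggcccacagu
mmu-miR-675-3p (*H19*, chromosome 7, minus strand, 142577078 to 142577099): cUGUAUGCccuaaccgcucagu
mmu-miR-483-5p (*Igf2*, chromosome 7, minus strand, 142654968 to 142654989): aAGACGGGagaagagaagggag
mmu-miR-483-3p (*Igf2*, chromosome 7, minus strand, 142654932 to 142654952): uCACUCCUccccucccgucuu
mmu-miR-1906 (*Meg3*, chromosome 12, plus strand, 109544588 to 109544609): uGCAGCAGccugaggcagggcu
mmu-miR-770-5p (*Meg3*, chromosome 12, plus strand, 109563710 to 109563731): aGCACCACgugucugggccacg
mmu-miR-770-3p (*Meg3*, chromosome 12, plus strand, 109563744 to 109563765): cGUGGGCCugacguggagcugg
mmu-miR-335-5p (*Mest*, chromosome 6, plus strand, 30741314 to 30741336): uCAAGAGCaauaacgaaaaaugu
mmu-miR-335-3p (*Mest*, chromosome 6, plus strand, 30741354 to 30741375): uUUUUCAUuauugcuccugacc

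ZFP57, a zinc finger protein that keeps imprints, binds the hexamer TGCCGC when it is methylated. This hexamer, which reads GCGGCA on the other strand, was looked for on both strands in the 250 bases before each RefSeq transcript start. RefSeq promoters (GRCm38.p6) were found for 9 members, with 16 windows. The hexamer was present in 4 of these 16 windows, and in 8.68% of all 32851 windows of this length. The 4 windows came from 3 members (*Mest*, *Plagl1* and *Meg3*), with 2 overlapping windows for *Mest*. CpG dinucleotides numbered 0 to 40 per member window, with a median of 6 over all windows. Shown are the windows of *Mest*, *Meg3* and *Grb10*, which fell, and that of *Dlk1*, the neighbour of *Meg3*, with the hexamer in capitals. None of the 4 windows shown overlaps an annotated exon (GENCODE M21), and those of *Mest* and *Grb10* lie inside the span of their genes. The match is a description of the letters, since neither methylation nor binding was measured.
*Mest* (chr6:30737800-30738049, plus strand): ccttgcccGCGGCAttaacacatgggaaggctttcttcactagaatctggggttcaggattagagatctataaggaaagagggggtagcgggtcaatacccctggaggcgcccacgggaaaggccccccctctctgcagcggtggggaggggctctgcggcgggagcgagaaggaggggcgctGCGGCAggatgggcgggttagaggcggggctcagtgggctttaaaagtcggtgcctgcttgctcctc
*Meg3* (chr12:109540746-109540995, plus strand): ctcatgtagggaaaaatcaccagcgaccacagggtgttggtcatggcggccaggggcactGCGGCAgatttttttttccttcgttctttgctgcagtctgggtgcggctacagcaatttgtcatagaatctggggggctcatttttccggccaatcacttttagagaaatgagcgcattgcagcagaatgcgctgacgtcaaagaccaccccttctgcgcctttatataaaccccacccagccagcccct
*Grb10* (chr11:12037421-12037670, minus strand): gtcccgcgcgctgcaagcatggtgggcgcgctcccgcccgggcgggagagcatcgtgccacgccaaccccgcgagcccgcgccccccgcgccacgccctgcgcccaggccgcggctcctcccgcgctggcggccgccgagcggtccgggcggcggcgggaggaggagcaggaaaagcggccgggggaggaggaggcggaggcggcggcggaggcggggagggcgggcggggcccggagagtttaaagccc
*Dlk1* (chr12:109452573-109452822, plus strand): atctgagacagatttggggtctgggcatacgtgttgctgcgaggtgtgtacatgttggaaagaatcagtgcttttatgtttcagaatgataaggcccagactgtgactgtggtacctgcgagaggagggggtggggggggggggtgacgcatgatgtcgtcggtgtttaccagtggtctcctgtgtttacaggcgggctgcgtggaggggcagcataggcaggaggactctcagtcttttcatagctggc
The *Mest* window held 2 copies of the hexamer and 14 CpG dinucleotides. The *Meg3* window held 1 copy and 10 CpG dinucleotides. The *Grb10* window, with 40 CpG dinucleotides, and the *Dlk1* window, with 8, held 0 copies.

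Of the 10 imprinted growth genes, 7 fell and 0 rose in *Pich*-KO LSK cells, and *Igf2r*, *Dlk1* and *Peg3* did not pass the test. The test was limma on log2(normalized count + 1), where changes of genes with few reads come out too small. A gene was called where its adjusted p, over the 32428 genes, was under 0.05. Over all genes tested, 9.6% fell and 7.58% rose by the same rule. These shares, given for the lists below too, include genes with few reads. With at least 10 normalized counts in every sample, as all 10 members had, limma called 3189 of 13928 genes lower and 2926 higher. The median log2 fold change of the members was −1.38. In these 7 genes both *Pich*-KO samples lay below both *Pich*-WT samples, an order found in 27.2% of all genes tested. In 0 members did both *Pich*-KO samples lie above, against 28.9% of all genes. Of the 4 maternally expressed members 3 fell, with a median of −1.07, and of the 6 paternally expressed members 4 fell, with a median of −2.0. The allele classes were not tested against each other. In sorted bulk cells, fewer cells of an expressing type and less RNA per cell cannot be told apart.

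The smallest p that exact two-sided permutation allows with 2 samples in each group is 0.333. The calls therefore rest on variance information pooled over genes. When the pooled variance was not allowed to depend on mean level, limma called 0 of the 10 members, although 6 had an unadjusted p under 0.05. edgeR's quasi-likelihood test and DESeq2 on the recovered reads called 7 and 6 members lower. With any 1 sample left out limma called 0 members, and edgeR called 7 lower except without *Pich*-WT sample 1, where it called 6 and *Meg3* missed the threshold.

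**Figure D1:**
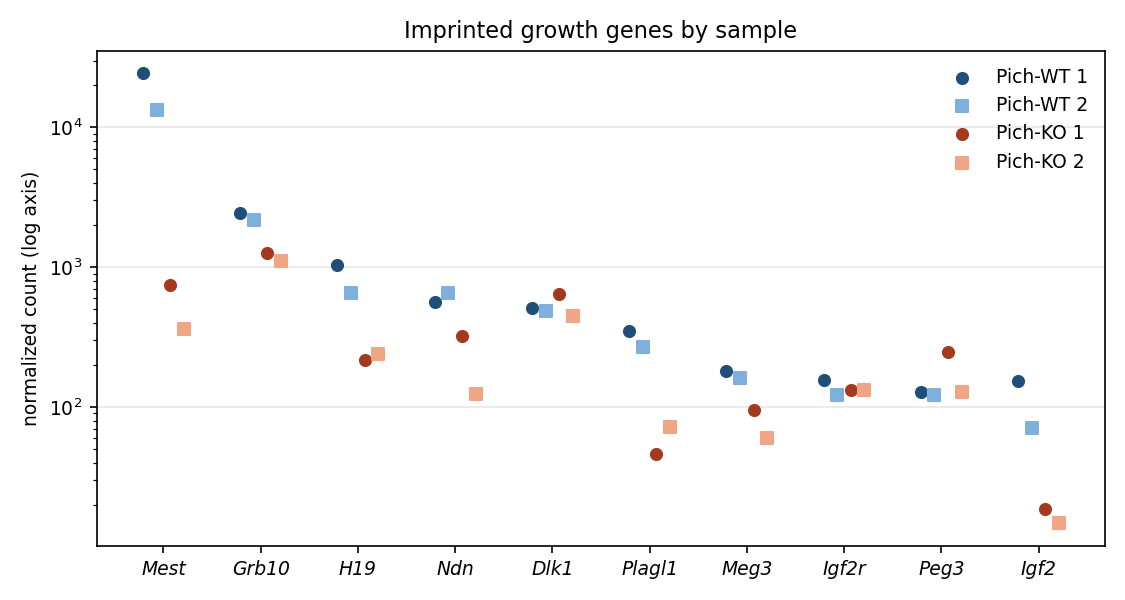
Normalized count of each imprinted growth gene in each sample, on a log axis, with genes ordered by their *Pich*-WT mean. *Mest* drops from at least 13369 in the *Pich*-WT samples to at most 741 in the *Pich*-KO samples, while the *Igf2r* and *Dlk1* points of the groups overlap.

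The 2 noncoding RNAs among the members both fell. *H19* (ENSMUSG00000000031, chromosome 7, 142575529 to 142578143, minus strand, GRCm38) gives rise to a long noncoding RNA that is abundant in fetal tissues. Its normalized counts were 218 and 239.9 in *Pich*-KO samples 1 and 2, and 1041 and 649 in *Pich*-WT samples 1 and 2. The *Pich*-KO samples lay close together and well under both *Pich*-WT samples, which differed by 1.60 times. The group means were 229 ± 15.4 and 845 ± 277 (SD, n = 2), a 3.69-fold lower level. The log2 fold change was −1.84 (SE, standard error, 0.23, limma adjusted p = 0.0013), and −2.18 without *Pich*-WT sample 2.

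*Meg3* (ENSMUSG00000021268, chromosome 12, 109541001 to 109571726, plus strand) is the first transcript of the maternally expressed noncoding RNAs of the *Dlk1*-*Meg3* region. It had normalized counts of 94.9 and 60.2 in *Pich*-KO against 182 and 162 in *Pich*-WT. The *Pich*-WT samples were alike, and the *Pich*-KO samples lay below them with a wider spread. Its log2 fold change was −1.17 (SE 0.29, limma adjusted p = 0.026), and −1.26 without *Pich*-WT sample 2. The adjusted p of *Meg3* rose to 0.063 in limma with no filter on low values. It was 0.091 in edgeR without *Pich*-WT sample 1.

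Among the growth factor and receptor genes the ligand and the adaptor fell, and the clearing receptor did not pass the test. *Igf2* (ENSMUSG00000048583, chromosome 7, 142650766 to 142666816, minus strand) had normalized counts of 18.5 and 14.8 in *Pich*-KO against 154 and 71 in *Pich*-WT. These rested on 17 and 13 reads in *Pich*-KO and on 197 and 71 reads in *Pich*-WT. Both *Pich*-KO values were low, and the *Pich*-WT values differed by 2.17 times. In limma the log2 fold change was −2.59 (SE 0.43, limma adjusted p = 0.0049), and −3.14 without *Pich*-WT sample 2. An antisense transcript, *Igf2os*, overlaps the gene and reached a normalized count of 13.3 in its highest sample. The library kit does not mark strand, so reads of overlapping partners cannot be told apart.

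*Igf2r* (ENSMUSG00000023830, chromosome 17, 12682406 to 12769664, minus strand) had normalized counts of 133 in both *Pich*-KO samples and of 155 and 122 in *Pich*-WT. The *Pich*-KO values lay between the *Pich*-WT values. The log2 fold change was −0.05 (SE 0.23, limma adjusted p = 0.93), and −0.22 without *Pich*-WT sample 2. *Airn*, a noncoding RNA on the other strand, overlaps part of *Igf2r*. Its normalized counts were 13.1 and 9.09 in *Pich*-KO against 34.4 and 36.0 in *Pich*-WT. It fell, with a log2 fold change of −1.60 (SE 0.44, limma adjusted p = 0.040). Its adjusted p was 0.051 in limma with a pseudocount of 0.1, 0.066 in limma with no filter and 0.073 in DESeq2. In edgeR it was 0.077 to 0.12 when *Pich*-KO sample 2 or either *Pich*-WT sample was left out.

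*Grb10* (ENSMUSG00000020176, chromosome 11, 11930508 to 12038683, minus strand) had normalized counts of 1272 and 1098 in *Pich*-KO against 2454 and 2178 in *Pich*-WT. The samples of each group differed by less than 1.16 times, and the groups did not overlap. Its log2 fold change of −0.97 was the smallest in size among the 7 that fell, with an SE of 0.13 and an adjusted p of 0.0015 (limma). It was −1.05 without *Pich*-WT sample 2.

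*Dlk1* (ENSMUSG00000040856, chromosome 12, 109452823 to 109463336, plus strand) encodes a membrane protein related to the Notch ligands and is expressed in fetal liver. Its normalized counts were 648 and 446 in *Pich*-KO against 513 and 484 in *Pich*-WT. The *Pich*-WT values lay inside the *Pich*-KO range. In limma the log2 fold change was 0.11 (SE 0.20, limma adjusted p = 0.78), and 0.07 without *Pich*-WT sample 2.

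*Mest* (ENSMUSG00000051855, chromosome 6, 30723547 to 30748465, plus strand) encodes a protein of the alpha/beta hydrolase fold family and is expressed in mesoderm. It had normalized counts of 741 and 364 in *Pich*-KO against 24334.5 and 13369 in *Pich*-WT. It was the highest member in *Pich*-WT, and no *Pich*-KO sample came near it. The group means were 552 ± 266 and 18852 ± 7754 (SD, n = 2), a 34.1-fold lower level. The log2 fold change was −5.12 (SE 0.35, limma adjusted p = 9.2e-05), and −5.55 without *Pich*-WT sample 2. The 3′ end of *Mest*, from 30747554 to 30748465, overlaps *Copg2* on the other strand, whose normalized counts reached 1094 at most. *Copg2* had a log2 fold change of 0.19 (limma adjusted p = 0.47).

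*Plagl1* (ENSMUSG00000019817, chromosome 10, 13060504 to 13131694, plus strand) encodes a zinc finger transcription factor known to regulate other imprinted genes. Its normalized counts were 45.8 and 71.6 in *Pich*-KO against 349 and 269 in *Pich*-WT. Both *Pich*-KO samples were low, and in this gene sample 2 was the higher of them. In limma the log2 fold change was −2.40 (SE 0.29, limma adjusted p = 0.0010), and −2.59 without *Pich*-WT sample 2.

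*Ndn* (ENSMUSG00000033585, chromosome 7, 62346569 to 62350262, plus strand) encodes necdin, a MAGE family protein that holds cells in a non-dividing state and has been studied in HSC quiescence. It had normalized counts of 323 and 124 in *Pich*-KO against 564 and 650 in *Pich*-WT. The *Pich*-KO samples differed by 2.61 times, the widest spread within *Pich*-KO among the members, yet both lay below *Pich*-WT. The log2 fold change was −1.59 (SE 0.39, limma adjusted p = 0.026), and −1.49 without *Pich*-WT sample 2. It was −2.28 without *Pich*-KO sample 1 and −0.91 without *Pich*-KO sample 2. The call of *Ndn* was lost in 8 of 16 alternatives, the most among the 7 calls. Its adjusted p was 0.067 with a pseudocount of 0.1, 0.095 with no filter on low values and 0.063 in DESeq2.

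*Peg3* (ENSMUSG00000002265, chromosome 7, 6703892 to 6730431, minus strand) encodes a large zinc finger protein. It had normalized counts of 245 and 127 in *Pich*-KO against 127 and 121 in *Pich*-WT. *Pich*-KO sample 1 stood above the other samples, which were close together. In limma the log2 fold change was 0.51 (SE 0.32, limma adjusted p = 0.36), and 0.47 without *Pich*-WT sample 2. Without *Pich*-KO sample 2, edgeR called *Peg3* higher, with a log2 fold change of 1.02 (adjusted p = 0.0071).

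**Figure D2:**
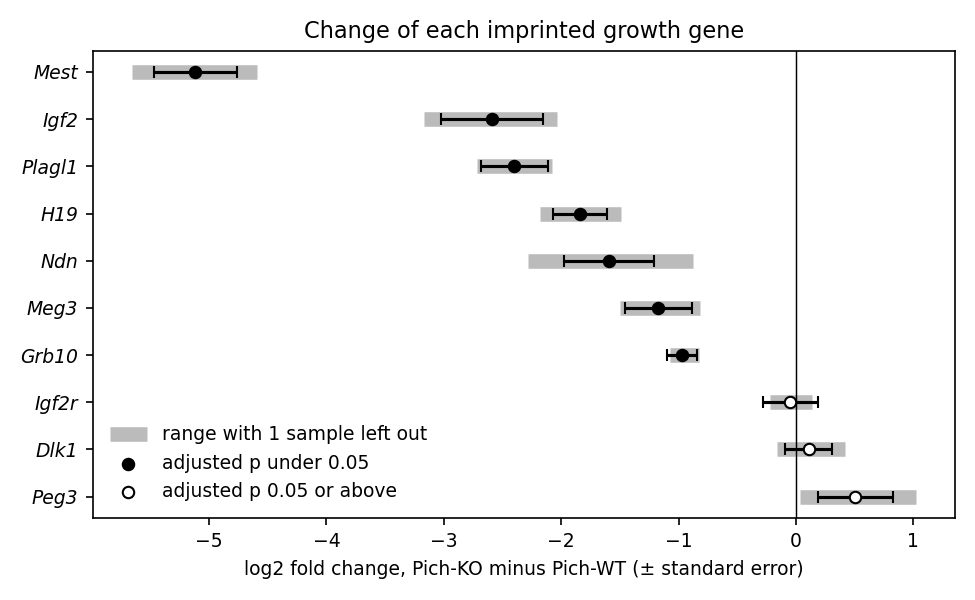
Log2 fold change of each member, *Pich*-KO minus *Pich*-WT, on log2(normalized count + 1), with its SE. Grey bars span the values with 1 sample left out, in limma or edgeR. The bars of the 7 members that fell stay below 0, from −5.66 for *Mest* at the lowest to −0.82 for *Meg3* at the highest, while those of *Igf2r* and *Dlk1* cross 0.

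Levels were compared between members per kilobase of the gene length listed in the table. In *Pich*-WT the order from high to low was *Mest*, *H19*, *Grb10*, *Ndn*, *Dlk1*, *Plagl1*, *Igf2*, *Igf2r*, *Meg3* and *Peg3*. *Mest* stood at 4779 normalized counts per kilobase and *H19* at 344. *H19* and *Grb10*, *Igf2* and *Igf2r*, and *Meg3* and *Peg3* were neighbours whose samples overlapped. In *Pich*-KO the order was *Mest*, *Grb10*, *Dlk1*, *H19*, *Ndn*, *Igf2r*, *Peg3*, *Plagl1*, *Meg3* and *Igf2*. *Mest* was still first, at 140 normalized counts per kilobase, with samples that overlapped those of *Grb10*, at 130. The samples of *Dlk1* and *H19*, and of *Igf2r* and *Peg3*, also overlapped. *Igf2* was last, at 2.91 normalized counts per kilobase, against 19.7 in *Pich*-WT.

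**Figure D3:**
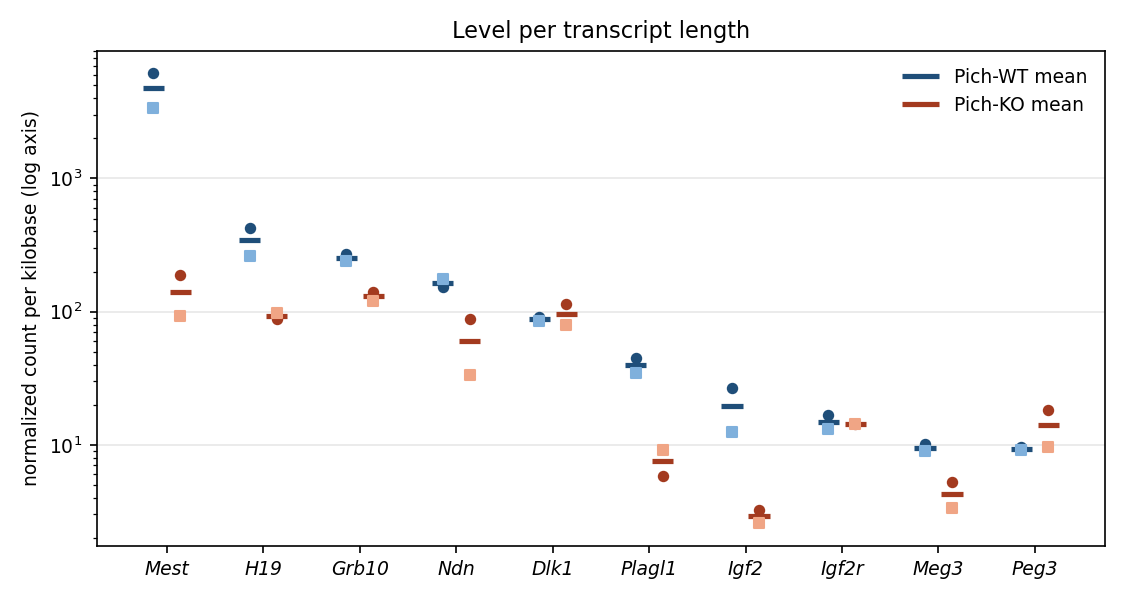
Normalized count per kilobase of gene length on a log axis, with group means as lines and samples as points (circles, sample 1; squares, sample 2). *Igf2r* is at 14.9 in *Pich*-WT and 14.3 in *Pich*-KO, whereas *Mest* goes from 4779 to 140.

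Ratios of members within a sample do not depend on library scaling. The count of *H19* was 11.8 and 16.2 times that of *Igf2* in *Pich*-KO samples 1 and 2, and 6.76 and 9.14 times in *Pich*-WT samples 1 and 2. Both members of this pair fell. The count of *Meg3* was 0.147 and 0.135 times that of *Dlk1* in *Pich*-KO, and 0.355 and 0.335 times in *Pich*-WT. This pair is the one in which a maternally expressed RNA fell and its paternally expressed neighbour did not pass the test. The count of *Igf2r* was 7.18 and 9.0 times that of *Igf2* in *Pich*-KO, and 1.00 and 1.72 times in *Pich*-WT. None of these ratios overlapped between the groups, and with 2 samples a group they were not tested. They restate the changes of the members given above. Of all single genes tested, 27.2% lay lower and 28.9% higher in *Pich*-KO with no overlap between the groups.

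For *H19* and *Igf2*, the genes with the most alike pattern were sought among 10544 genes with a mean normalized count of at least 100. Likeness was the Euclidean distance over 4 samples between log2(normalized count + 1) values centred on each gene's mean. The 3 nearest to *H19* were *Cmtm8* at a distance of 0.11, *Rab7b* at 0.13 and *Slc31a2* at 0.17. Their log2 fold changes were −1.93, −1.85 and −1.77. The 3 nearest to *Igf2* were *Plekha3* at a distance of 0.19, *Timp3* at 0.20 and *Lrrc8a* at 0.24. Their log2 fold changes were −2.44, −2.60 and −2.59. With 4 samples in 2 groups, such likeness rests mostly on the difference between the groups.

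Of 46 other imprinted genes tested, 3 rose, 15 fell and 28 did not pass the test, with a median log2 fold change of −0.43. By the same rule, 7.58% of all genes tested rose and 9.6% fell. *Asb4*, which encodes an ankyrin repeat and SOCS box protein, had the smallest log2 fold change, −3.36 (SE 0.38, limma adjusted p = 0.00078). *Cdkn1c* encodes p57, a cyclin-dependent kinase inhibitor known for its part in HSC quiescence. Its normalized counts were 115 and 77.3 in *Pich*-KO against 983 and 652 in *Pich*-WT, so both *Pich*-KO samples were far below. The log2 fold change was −3.08 (SE 0.27, limma adjusted p = 0.00025). *Kcnq1*, a potassium channel gene of the same cluster as *Cdkn1c*, fell by 2.95 on the log2 scale (SE 0.60, limma adjusted p = 0.012). Without *Pich*-KO sample 1 and sample 2 in turn, edgeR gave −3.96 and −2.78 for *Asb4* and −4.03 and −2.20 for *Kcnq1*.

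The genes that rose included *Kcnq1ot1*, the long noncoding RNA whose paternal transcript silences the *Cdkn1c* cluster in cis. It had normalized counts of 1021 and 1458 in *Pich*-KO against 506 and 498 in *Pich*-WT. Its log2 fold change was 1.28 (SE 0.18, limma adjusted p = 0.0024). *Kcnq1ot1* lies inside *Kcnq1* on the other strand, and without strand its reads cannot be told from those of unspliced *Kcnq1*. *Sfmbt2*, a polycomb group gene, and *Mcts2* also rose. The values were 1.19 for *Sfmbt2* (limma adjusted p = 0.037) and 0.99 for *Mcts2* (limma adjusted p = 0.029) on the log2 scale. With a pseudocount of 0.1 the limma adjusted p was 0.067 for *Sfmbt2* and 0.053 for *Mcts2*, and with no filter it was 0.089 and 0.072. In edgeR, *Sfmbt2* missed the threshold without *Pich*-KO sample 1 and without either *Pich*-WT sample (adjusted p = 0.056 to 0.060), and *Mcts2* missed it without *Pich*-WT sample 2 (adjusted p = 0.10).

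Among genes in or near the imprinted regions of the members, several had few reads. *Ins2*, next to *Igf2*, had 2 and 1 reads in *Pich*-KO against 0 and 1 reads in *Pich*-WT, so no fold is given. *Phlda2*, a growth-restraining gene of the *Cdkn1c* cluster, had 3.41 to 8.0 normalized counts over all samples. Its log2 fold change was −0.31 (limma adjusted p = 0.82). In the *Dlk1*-*Meg3* region, the noncoding RNA *Rian* had normalized counts of 61.1 and 38.6 in *Pich*-KO against 61.0 and 50 in *Pich*-WT. The *Pich*-WT values of *Rian* lay inside the *Pich*-KO range (log2 fold change −0.18, limma adjusted p = 0.80). *Mirg*, a microRNA-containing RNA downstream of *Rian*, had a log2 fold change of −0.06 (limma adjusted p = 0.97). *Rtl1*, a paternally expressed retrotransposon-derived gene, had 1 to 5 reads per sample.

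*Usp29*, the neighbour of *Peg3*, had normalized counts of 9.82 and 22.7 in *Pich*-KO against 26.6 and 6.00 in *Pich*-WT, which overlapped. *Magel2*, the neighbour of *Ndn* and also a MAGE family gene, had 0 and 1 reads in *Pich*-KO against 2 and 5 reads in *Pich*-WT. *Snrpn*, which encodes a spliceosome protein and lies in the same region, had normalized counts of 131 and 103 in *Pich*-KO against 123 and 111 in *Pich*-WT. Its log2 fold change was −0.01 (SE 0.25, limma adjusted p = 0.98). *Peg12*, also of the *Ndn* region and named after its values were seen, had normalized counts of 36.0 and 30.7 in *Pich*-KO against 168 and 105 in *Pich*-WT. It fell, with a log2 fold change of −1.97 (SE 0.33, limma adjusted p = 0.0048). *Mkrn3* and *Ube3a* of this region, also named after their values were seen, did not pass the test. Their log2 fold changes were −1.56 (limma adjusted p = 0.15) and 0.01 (limma adjusted p = 0.97).

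Of 24 genes of the IGF axis, 2 rose, 7 fell and 15 did not pass the test, with a median log2 fold change of −0.19. Among all genes tested, 7.58% rose and 9.6% fell. *Igf1*, the ligand that shares the IGF1 receptor with *Igf2*, had normalized counts of 65.4 and 20.46 in *Pich*-KO against 1205 and 1396 in *Pich*-WT. It fell by 5.10 on the log2 scale (SE 0.46, limma adjusted p = 0.00027), and edgeR gave −5.95 without *Pich*-KO sample 1 and −4.27 without sample 2. The IGF1 receptor gene *Igf1r* had normalized counts of 688 and 600.2 in *Pich*-KO against 1077 and 1010 in *Pich*-WT, with no overlap. It fell by 0.70 on the log2 scale (SE 0.14, limma adjusted p = 0.011). *Insr*, the insulin receptor gene, rose instead, with normalized counts of 976 and 654 against 424 and 410 (log2 fold change 0.94, limma adjusted p = 0.016). With no filter on low values the limma adjusted p of *Insr* was 0.055. The adjusted p of *Igf1r* was 0.051 in edgeR without *Pich*-WT sample 1.

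*Igfbp7*, a secreted IGF-binding protein related gene, fell by 4.36 (limma adjusted p = 9.5e-05). *Stc1*, a stanniocalcin gene, fell by 3.46 on the same log2 scale (limma adjusted p = 0.0053), with −4.62 and −2.53 in edgeR without *Pich*-KO sample 1 and sample 2. *Lin28b* encodes an RNA-binding protein of fetal blood progenitors. It had normalized counts of 1096 and 1247 in *Pich*-KO against 197 and 176 in *Pich*-WT. It rose with a log2 fold change of 2.64 (SE 0.16, limma adjusted p = 6.2e-05).

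Of 16 genes that set or keep imprints, 4 rose, 1 fell and 11 did not pass the test, with a median log2 fold change of −0.09. The shares over all genes tested were 7.58% that rose and 9.6% that fell. *Zfp57* fell, with normalized counts of 39.3 and 37.5 in *Pich*-KO against 202 and 93.0 in *Pich*-WT (log2 fold change −1.81, SE 0.39, limma adjusted p = 0.015). With no filter on low values in limma, and in edgeR without *Pich*-WT sample 1, 0 genes of this list fell. *Smchd1*, a chromatin protein of X inactivation that also acts at some imprinted clusters, rose with a log2 fold change of 1.71 (limma adjusted p = 0.00011). *Zfp445*, a second zinc finger gene for imprint maintenance, rose with a log2 fold change of 0.85 (limma adjusted p = 0.0054). *Dnmt1*, the maintenance DNA methyltransferase gene, had normalized counts of 9060 and 9392 in *Pich*-KO against 5807 and 5753 in *Pich*-WT. Its log2 fold change was 0.67 (SE 0.08, limma adjusted p = 0.00076).

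**Figure D4:**
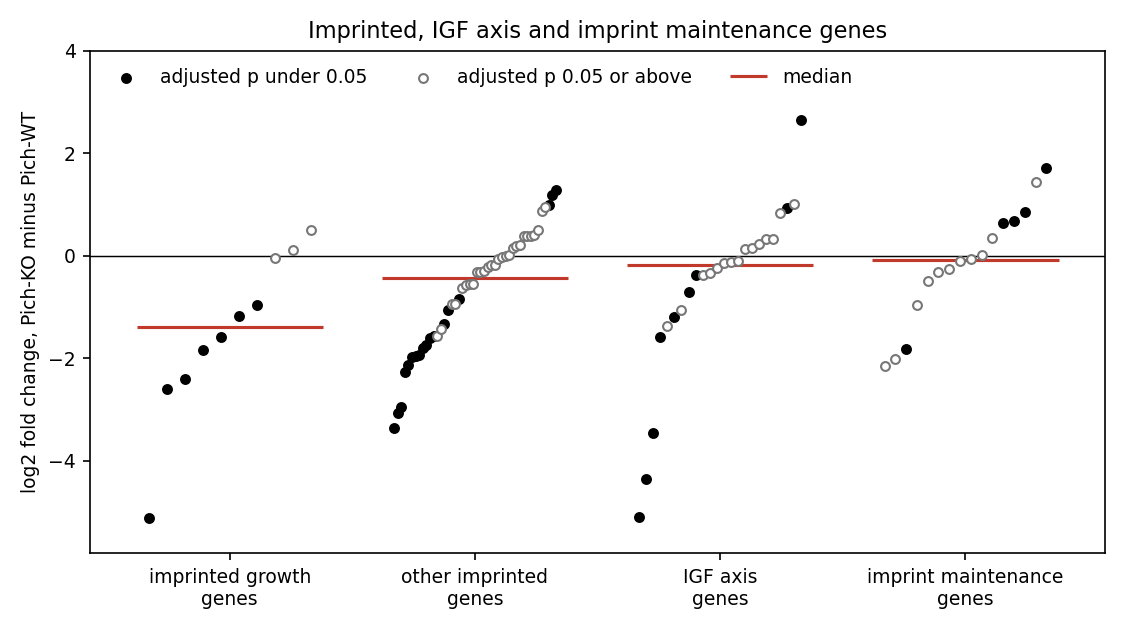
Log2 fold change of every tested gene of 4 lists, sorted within each list, with the median as a red line and genes past an adjusted p of 0.05 filled. The medians are −1.38 for the imprinted growth genes, −0.43 for the other imprinted genes, −0.19 for the IGF axis and −0.09 for imprint maintenance.

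Genes listed as markers of several other fetal liver cell types moved in the same direction as the members that fell. Whether LSK cells also express some of these genes was not checked. For every marker list below, the shares over all genes tested were 9.6% that fell and 7.58% that rose. All 12 endothelial markers fell, with a median log2 fold change of −4.05. Their summed level was 7660 and 5108 normalized counts in *Pich*-KO against 54106 and 37969 in *Pich*-WT. The highest were *Lyve1*, a receptor of sinusoidal and lymphatic endothelium, with a log2 fold change of −5.39 (limma adjusted p = 7.7e-05), and *Oit3*, with −4.79 (limma adjusted p = 0.00016). All 12 macrophage markers also fell, with a median of −5.02 and summed levels of 9149 and 8023 in *Pich*-KO against 59362 and 60902 in *Pich*-WT. The highest of these were *C1qb*, a complement subunit gene, at −4.69 (limma adjusted p = 3.1e-06), and *Csf1r*, the receptor of macrophage colony-stimulating factor, at −1.33 (limma adjusted p = 0.00011). This was the smallest change among the 12 macrophage markers, and *C1qc*, named after its values were seen, ranked above *Csf1r* per kilobase in *Pich*-WT and had a log2 fold change of −5.19. Of 12 erythroid markers 9 fell, with a median of −1.86 and summed levels of 32891 and 36268 in *Pich*-KO against 180316 and 137956 in *Pich*-WT. Both globin genes *Hba-a1* and *Hbb-bt* fell, with log2 fold changes of −2.29 (limma adjusted p = 4.6e-05) and −2.57 (limma adjusted p = 2.9e-05).

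Of 12 hepatoblast markers 7 fell, with a median of −0.82 and summed levels of 3427 and 2892 in *Pich*-KO against 5601 and 4994 in *Pich*-WT. *Afp* had a log2 fold change of −0.52 (limma adjusted p = 0.079), and *Alb*, the albumin gene, fell by 0.83 (limma adjusted p = 0.0040). Of 12 mesenchymal markers 1 rose and 2 fell, with summed levels of 1351 and 797 in *Pich*-KO against 1224 and 1093 in *Pich*-WT, which overlapped. In edgeR under both scalings, in DESeq2 and with the replicate block 4 of them rose, with at least 10 in every sample 3 rose, and with a pseudocount of 0.1 or no filter 0 rose. The highest mesenchymal markers were *Postn*, which fell by 3.58 (limma adjusted p = 0.0012), and *Pdgfrb*, at 0.98 (limma adjusted p = 0.089). The members summed to 3739 and 2678 normalized counts in *Pich*-KO against 29874 and 18075 in *Pich*-WT, a 7.47-fold lower level. *Mest* alone made up 81.5% and 74.0% of the *Pich*-WT sums. Without it the other 9 members summed to 2998 and 2314 in *Pich*-KO against 5539 and 4706 in *Pich*-WT, a 1.93-fold lower level. The part of these cell types in the lower levels of *H19*, *Igf2*, *Meg3*, *Grb10*, *Ndn*, *Mest* and *Plagl1* was not tested.

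The LSK label was checked against 12 stem and progenitor markers, of which 1 rose and 5 fell. Their summed level was 32513 and 20591 normalized counts in *Pich*-KO against 28821 and 30485 in *Pich*-WT, which overlapped. *Ly6a*, the Sca-1 gene used in the gate, had normalized counts of 3586 and 2978 in *Pich*-KO against 901 and 1061 in *Pich*-WT. It rose with a log2 fold change of 1.74 (limma adjusted p = 0.00017). *Cd48* had a log2 fold change of 0.31 (limma adjusted p = 0.13). The 5 that fell, named after their values were seen, were *Procr* (log2 fold change −2.88), *Hlf* (−2.37), *Mecom* (−2.10), *Slamf1* (−0.90) and *Gata2* (−0.58), genes known from HSCs. Of 6 genes of the lineage antibodies 2 fell, and *Cd79a*, a B cell receptor subunit gene, had a log2 fold change of −0.22 (limma adjusted p = 0.82). In these lists 0 markers had 0 reads in every sample.

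**Figure D5:**
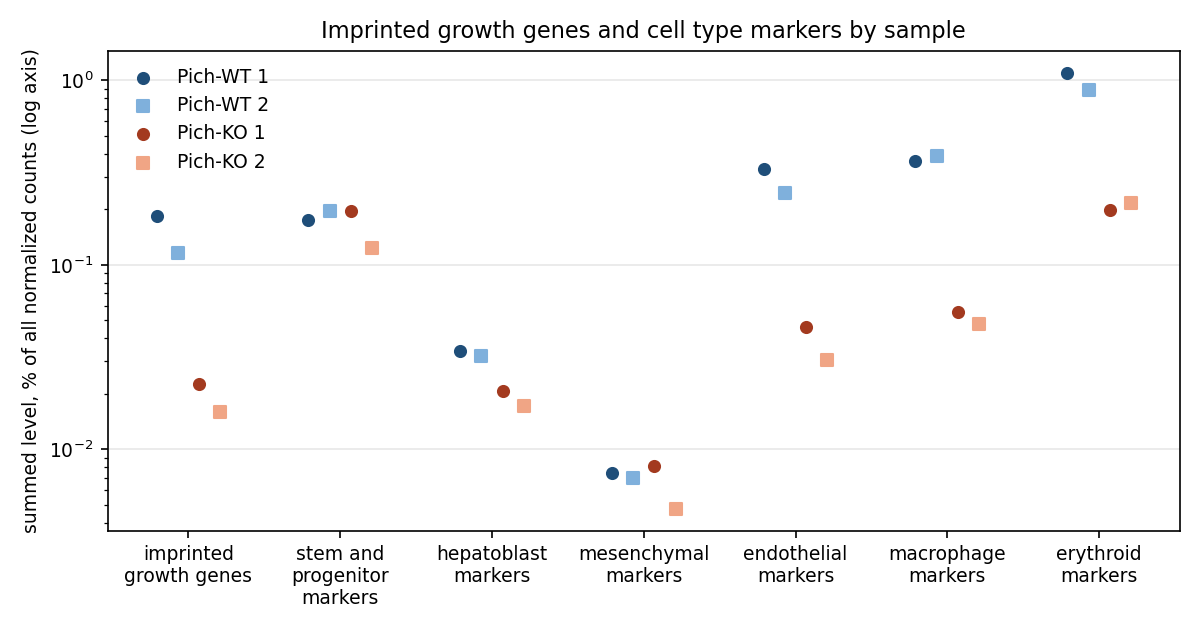
Summed level of the 10 members and of each marker list, as a percent of all normalized counts of a sample, on a log axis. The members make up 0.183% and 0.116% in *Pich*-WT and 0.0226% and 0.016% in *Pich*-KO, and the endothelial, macrophage and erythroid sums are also lower in both *Pich*-KO samples, whereas the mesenchymal sums overlap.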

How the data were processed

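RNA of sorted fetal liver LSK cells (2 *Pich*-KO samples, 2 *Pich*-WT samples) was sequenced with TruSeq libraries, which do not mark strand. The authors deposited a signal, namely read counts per gene divided by one size factor per sample. Whole reads were recovered for 100% of values in each sample, within a tolerance of 0.01. The submitters' notes name Bowtie 0.12.2 and the builds mm8 and mm9 without a role, yet 38252 of 39131 genes, including all 10 members, had GENCODE M21 positions, so coordinates are on GRCm38. The counter is not given in the sources used here. The authors' fold changes, p-values and means were not used. Genes with a mean of at least 1 (32428 of 39186) were fitted with limma 3.58.1 in R 4.3.3 on log2(value + 1), letting the prior variance depend on mean level, and p-values were adjusted by Benjamini-Hochberg. The procedure was tested on simulated data with the same dispersion for every gene. That setting is simpler than these data, so the test is no check of the calls. edgeR 4.0.16 and DESeq2 1.42.0 used the recovered reads. Between replicates, chi-square over its degrees of freedom was 14.7 (*Pich*-KO) and 8.18 (*Pich*-WT).

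Members and lists were chosen with earlier results of these data known. Named genes were the members, a fixed set of neighbours, *Igf1* and *Igf1r*, the 3 largest and 3 smallest changes past the threshold in each list, and the 2 highest markers per kilobase in each marker list, of which 1 is not reported here. *Snurf* was not analysed here, and *Dio3* was under the filter. *Copg2* and *Igf2os* were named because they overlap members.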

Additional observations from a re-analysis of the deposited data

How the results depend on the processing

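With 2 samples a group, calls depend on the variance model. Without a variance trend, limma called 0 genes higher and 0 lower, in all genes and in every list, although 7377 genes had an unadjusted p under 0.05 and edgeR called 6533. The members that fell numbered 7 in limma with the block, with at least 10 in every sample and in edgeR under both scalings, 6 with a pseudocount of 0.1 or DESeq2, and 5 without a filter on the mean. No member that fell changed direction in these fits or with 1 sample left out. Among the other imprinted genes, 1 rose with a pseudocount of 0.1, and 1 rose and 9 fell without a filter. Without a filter 1 IGF axis gene rose and 0 imprint maintenance genes fell. Imprint maintenance genes that fell numbered 2 with at least 10 in every sample, in edgeR under either scaling and in DESeq2.

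The deviations of same-numbered samples had a correlation of 0.04 over 13928 genes. With 2 samples a group, this value cannot show whether the replicate numbers pair the samples. With the replicate block 4 IGF axis genes rose and 3 imprint maintenance genes fell.

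Leaving out 1 sample, limma called 0 genes (5757 to 8599 at an unadjusted p under 0.05), with 1 residual degree of freedom. edgeR, added after the data were seen and assuming that the lone sample varies like the other group, called 6 or 7 members lower. Over both tools and all omissions, genes higher ranged from 0 to 3685 and lower from 0 to 3917. Members higher ranged from 0 to 1 and lower from 0 to 7, with medians of −1.63 to −0.85. Other imprinted genes ranged from 0 to 5 higher and 0 to 17 lower, with medians of −0.67 to −0.34. IGF axis genes ranged from 0 to 4 higher and 0 to 8 lower, with medians of −0.38 to 0.22. Imprint maintenance genes ranged from 0 to 5 higher and 0 to 5 lower. Their median ranged from −0.18 to 0.14, the positive value being that of edgeR without *Pich*-KO sample 2. The cause of these shifts was not tested. Without *Pich*-WT sample 2, which lacks Y-linked reads, edgeR called 7 members lower.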
